A study of Sus scrofa with 2 samples.

Results

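The cells described here are the APOA1 high, IL33 low granulosa cells of 2 porcine antral follicles, called AF75 and AF76. They were chosen on measured values: a cell barcode had to hold at least 30 unique molecular identifiers (UMIs, each the tag of 1 captured mRNA molecule) of APOA1, more APOA1 than IL33, fewer than 30 UMIs of VCAN and fewer than 5 UMIs of TOP2A, UBE2C and CENPF together. Only barcodes with 2000 to 5000 detected genes and less than 7% of UMIs from 13 mitochondrial genes were considered. The rule kept 1477 of 9362 such barcodes in AF75, or 15.8% (exact binomial 95% interval 15.04 to 16.53%), and 1006 of 7843 in AF76, or 12.8% (12.1 to 13.6%). Together they were 2483 of 17205 barcodes within the limits and of 29837 deposited. Both follicles, over 7 mm in diameter, came from the ovaries of 1 pubertal Landrace × Yorkshire gilt aged 210 days that had received pregnant mare serum gonadotropin. Each was punctured and flushed, its cumulus-oocyte complex was treated with hyaluronidase, and the granulosa cells suspended in the fluid were sequenced with the 10x Genomics 3′ assay as 1 library per follicle. With 1 library per follicle and 1 animal, no test between groups was possible. Intervals given with levels and ratios are 95% intervals of counting error only, and a gene was called higher or lower where its ratio was at least 1.5-fold. Paired values are given for AF75 first and AF76 second.

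Granulosa cells line the wall of an antral follicle (mural cells) or surround the oocyte (cumulus cells). They take up or make cholesterol, the substrate of steroid hormones. When sterols are low in the endoplasmic reticulum, the transcription factor SREBP2 is released from INSIG proteins, reaches the nucleus and raises the genes of the mevalonate and sterol pathway. APOA1 is the main protein of high-density lipoprotein, the chief lipoprotein of follicular fluid, while IL33 is a nuclear cytokine of the interleukin 1 family.

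The rest of the barcodes within the limits were sorted by the same genes. IL33-side barcodes held more IL33 than APOA1, fewer than 30 VCAN UMIs and fewer than 5 of the 3 cell division genes, and numbered 4159 in AF75 and 5138 in AF76. VCAN-high barcodes held 30 or more UMIs of VCAN, a proteoglycan of the expanded cumulus matrix, and fewer than 5 of the cell division genes, and numbered 2118 and 221. Dividing barcodes, with 5 or more UMIs of those genes whatever their VCAN, numbered 428 and 118. Of the rest, 1180 and 1360, most (1071 and 1089) held more APOA1 than IL33 but fewer than 30 UMIs of it, and the others held equal counts of both. The APOA1 high cells had a median of 11261 UMIs and 3159 genes in AF75 and 14907.5 UMIs and 3563 genes in AF76, against 11252 and 13735 UMIs in all other barcodes within the limits. The libraries shared 56 barcode sequences, of which 18 were within the limits in both and 1 met the rule in both. The Scrublet doublet caller marked 0 barcodes in AF75 and 1 in AF76, at an expected rate of 6.9%. Its calls could therefore not show how many doublets the cells held. Of the APOA1 high cells, 10.6% and 8.55% had a score at or above that of the top 6.9% of barcodes within the limits, ties included, against 8.41% and 7.59% of all barcodes within the limits.

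**Figure D1:**
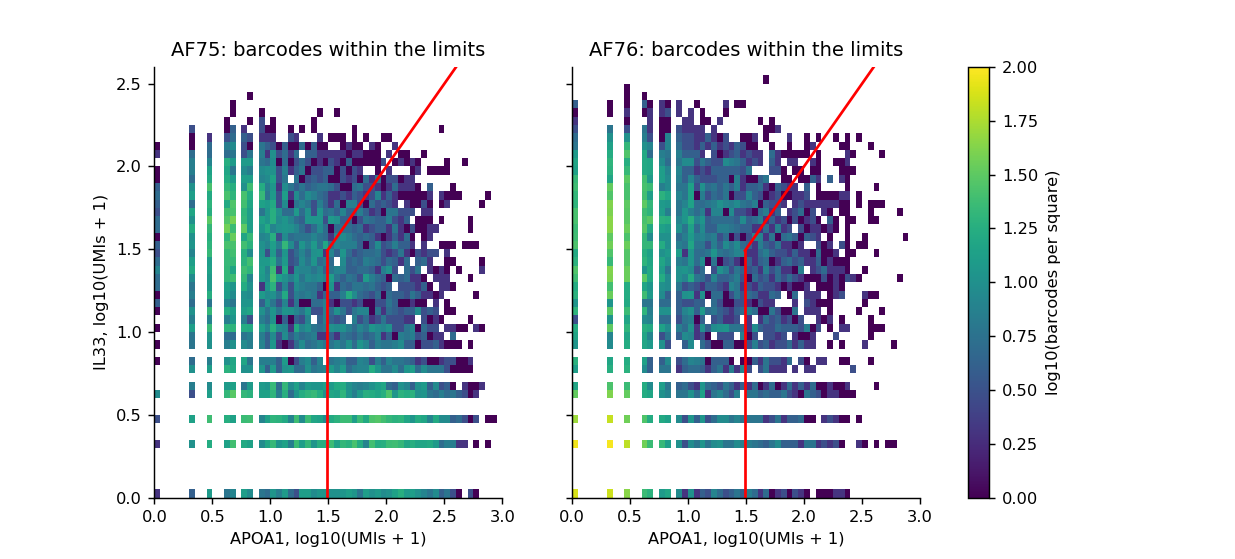
Number of barcodes within the limits by APOA1 UMIs (horizontal axis) and IL33 UMIs (vertical axis), both as log10(UMIs + 1), in AF75 (left) and AF76 (right), with colour for log10 of the barcodes per square. The cells described lie right of and below the red lines, which mark the APOA1 minimum of 30 and the line of equal counts. The VCAN and cell division limits are not drawn, and no gap separates the sides.

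The APOA1 high cells were a range cut from a continuum. Their APOA1 ran from 30 to 655 UMIs in AF75, with a median of 71, and from 30 to 775 in AF76, with a median of 69.5. Among barcodes that met every other limit, 126 in AF75 and 108 in AF76 held 25 to 29 APOA1 UMIs, just outside, and 136 and 86 held 30 to 34, just inside. SQLE stood at 353 CPM (the UMIs of a gene per 1000000 UMIs of the group) just outside and 324 just inside in AF75, and at 348 and 333 in AF76. MRO stood at 447 and 517 CPM in AF75 and at 400.2 and 424 in AF76. INHBA was also higher just inside, at 1160 and 1371 CPM in AF75 and 735 and 792 in AF76. INSIG1 was lower just inside, at 99.1 and 77.8 CPM in AF75 and 108 and 56.5 in AF76. DKK1 was lower there too, at 82.5 and 66.5 CPM in AF75 and 66.3 and 54.1 in AF76. In AF75 a further 1534 barcodes met all limits but that on VCAN, more than were kept, against 113 in AF76. Another 220 and 208 barcodes failed on IL33 alone, and 108 and 26 on the cell division genes alone.

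APOA1 itself, which chose the cells, amounted to 8132 CPM (8089 to 8174) in AF75 and 6458 CPM (6418 to 6498) in AF76. It amounted to 774 and 479 CPM in IL33-side barcodes. The VCAN-high barcodes, kept out by another gene, held 8868 CPM in AF75 and 3966 in AF76, so that high APOA1 was not particular to the cells kept. Red blood cell barcodes, those with at least 50% of their UMIs from HBB, should lack APOA1. The 8 of AF75 (median 3036.5 UMIs) held 470.3 CPM and the 35 of AF76 (median 4285 UMIs) held 89.2 CPM. APOA1 was in 7 of 8 and 10 of 35 of them, with at most 3 UMIs in any. Barcodes with several leukocyte markers, 4 in AF75 and 16 in AF76, held 475 and 369 CPM (median 18452.5 and 7088 UMIs). APOA1 was in 4 of 4 and 7 of 16 of these. Its maximum among them was 37 UMIs in each follicle, above the minimum of the rule, and 1 in AF75 met the whole rule. The source of this APOA1 was not tested. IL33 was low only by comparison. Its median was 10 UMIs in AF75 and 14.5 in AF76, and its level was 1515 and 1431 CPM against 3889.6 and 3388 on the IL33 side. VCAN had a median of 12 UMIs in AF75 and 7 in AF76.

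The 5 other genes proposed as markers of these cells, a list chosen from these libraries, matched the label in part. Over all other barcodes, SQLE (ratios 1.26 and 1.56), INSIG1 (1.26 and 1.44) and DKK1 (1.35 and 1.2) were above 1 in both follicles. MRO and INHBA were not: MRO had a ratio of 0.971 (0.951 to 0.992) in AF75 against 2.48 (2.41 to 2.55) in AF76, and INHBA of 0.669 (0.661 to 0.678) against 1.69 (1.65 to 1.72). With the VCAN limit set at 10 in place of 30, both were called lower in AF75, MRO at 0.61 and INHBA at 0.378, and INHBA was at 1.19 and no longer called in AF76. With no VCAN limit, chosen after the data were seen, both were called higher in AF75, MRO at 2.92 and INHBA at 2.69. VCAN-high barcodes carried more of both genes than the APOA1 high cells did, in both follicles. Over the IL33-side barcodes all 5 had ratios above 1 in both follicles, 3 of them at 1.5-fold in AF75 and 5 in AF76, beside 1.6% and 1.04% of all genes. DKK1, a secreted WNT antagonist, was sparse, at 43.2 and 41.8 CPM. INHA, the inhibin α subunit made by granulosa cells, was found in every one of the cells, at 21139 and 24614 CPM. It was also found in 100% of the other barcodes of both follicles. Of 9 listed granulosa markers, 5 and 6 were compared with the other barcodes, and 1 and 2 had a ratio above 1. Called lower were 2 and 3, beside 3.1% and 3.9% of all genes. Called higher were 0 and 1, beside 0.196% and 0.61%. AMH was at 0 UMIs in the cells of both follicles. The defining leukocyte marker PTPRC stood at 0.457 and 0 CPM and the endothelial marker CDH5 was at 0 UMIs in both.

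The cells shared a small excess of cholesterol synthesis genes, which the rule had not used. SQLE was among the proposed markers, so the list is not independent of earlier results. Of 20 pathway genes, 19 had at least 200 UMIs in the cells or the comparison and were compared (FDPS was too low), and all 19 had a ratio above 1 over the other barcodes of the same follicle, in both follicles. Among all genes compared 39.3% in AF75 and 32.3% in AF76 had a ratio above 1. The median log2 ratio of the 19 was 0.29 in AF75 and 0.53 in AF76, beside -0.03 and -0.07 over all genes, and their sum was 1.22-fold and 1.44-fold that of the comparison. At 1.5-fold, 0 of 19 were called in AF75 and 4 of 19 in AF76, beside 0.196% and 0.61% of all genes called higher (19 and 59 genes).

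Along the pathway, ACAT2, which joins acetyl groups at its start, had ratios of 1.33 (1.29 to 1.38) and 1.58 (1.53 to 1.64). HMGCS1, which makes HMG-CoA, stood at 311 and 325 CPM with ratios of 1.2 (1.16 to 1.24) and 1.49 (1.44 to 1.53). MVD, which makes isopentenyl diphosphate, had ratios of 1.3 (1.24 to 1.36) and 1.59 (1.52 to 1.67). The mevalonate kinases MVK (1.11 and 1.22) and PMVK (1.21 and 1.16) were nearer to 1. SQLE, which oxidizes squalene in the first oxygen-dependent step, stood at 326 CPM (317 to 334) in AF75 and 393 CPM (383 to 403) in AF76, against 259 and 252 CPM in the other barcodes, ratios of 1.26 (1.22 to 1.29) and 1.56 (1.51 to 1.6). The sterol demethylation enzymes CYP51A1 (1.26 and 1.45) and MSMO1 (1.29 and 1.49) were also above 1 in both. DHCR7, which catalyses a last step, had the lowest ratio in both follicles, 1.09 and 1.13. ACAT2, MVD and SQLE were among the 4 genes at 1.5-fold in AF76, and with VCAN below 10 they stood at 1.34, 1.41 and 1.37 there, so that none of the 4 was called. In all 19 genes except PMVK the ratio was larger in AF76 than in AF75.

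The promoters shown are those of HMGCS1, which holds a sterol regulatory element, of MVD, whose ratio was the largest of the pathway in AF76, and of APOA1, which chose the cells. Each is the 250 bases before the start of the RefSeq gene model on Sscrofa11.1, 5′ to 3′. Capitals mark CCAAT, the core of a box bound by NF-Y, and TCACNCCAC, a sterol regulatory element, each on either strand.
HMGCS1, chr16:27957262-27957511, minus strand: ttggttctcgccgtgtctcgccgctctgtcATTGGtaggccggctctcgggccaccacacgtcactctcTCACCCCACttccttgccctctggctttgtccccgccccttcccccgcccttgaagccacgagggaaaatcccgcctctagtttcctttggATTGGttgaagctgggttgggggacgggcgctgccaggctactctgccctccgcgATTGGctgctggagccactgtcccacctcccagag
MVD, chr6:1007850-1008099, plus strand: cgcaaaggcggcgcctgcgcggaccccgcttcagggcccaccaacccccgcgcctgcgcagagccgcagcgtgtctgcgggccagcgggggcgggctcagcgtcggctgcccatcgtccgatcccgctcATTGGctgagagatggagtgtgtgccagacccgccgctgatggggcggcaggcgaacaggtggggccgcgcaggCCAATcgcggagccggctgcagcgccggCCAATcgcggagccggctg
APOA1, chr9:44218361-44218610, minus strand: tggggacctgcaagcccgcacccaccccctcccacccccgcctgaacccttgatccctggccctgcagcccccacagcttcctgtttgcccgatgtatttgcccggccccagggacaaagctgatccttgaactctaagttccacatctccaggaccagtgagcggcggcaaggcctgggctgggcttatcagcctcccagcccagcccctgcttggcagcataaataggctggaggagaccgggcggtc

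Of 17 pathway genes found by symbol, 15 (88.2%) held CCAAT in that window, against 31.9% of the 19556 promoters of protein-coding genes on assembled chromosomes. TCACNCCAC was in 2 of the 17, among them HMGCS1, against 0.803% of all promoters. GGGCGG, a GC box on either strand, was in 15 of the 17 against 45.9% of all. The APOA1 window held neither of the first pair of motifs. These matches describe the letters in the window and are not evidence of binding.

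Against the IL33-side barcodes alone, 17 of 19 pathway genes had a ratio above 1 in AF75 and 19 of 19 in AF76, beside 41.3% and 37.8% of all genes. Of these, 0 and 11 reached 1.5-fold, while 1.6% and 1.04% of all genes did. SQLE had ratios of 1.23 (1.19 to 1.27) and 1.74 (1.69 to 1.79) there. Against the VCAN-high barcodes the 2 follicles went opposite ways. In AF75, 18 of 19 genes had a ratio above 1 (53.3% of all genes did), with a median log2 ratio of 0.55 and 9 genes called higher, beside 4.95% of all genes. In AF76, 18 of 19 had a ratio below 1 (39.9% of all genes had one above 1), with a median of -0.37 and 0 genes called higher and 3 lower, beside 0.695% and 2.24% of all genes. HSD17B7, an enzyme of both sterol and estradiol synthesis, was the exception each time, at 0.873 and 1.12. The excess over other barcodes in AF75 also rested on the VCAN limit. With no limit on VCAN, an alternative added after the data were seen, 6 of 19 genes had a ratio above 1 in AF75 and 19 of 19 in AF76. With VCAN below 10, 18 of 19 and 19 of 19 did, with median log2 ratios of 0.20 and 0.33.

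**Figure D2:**
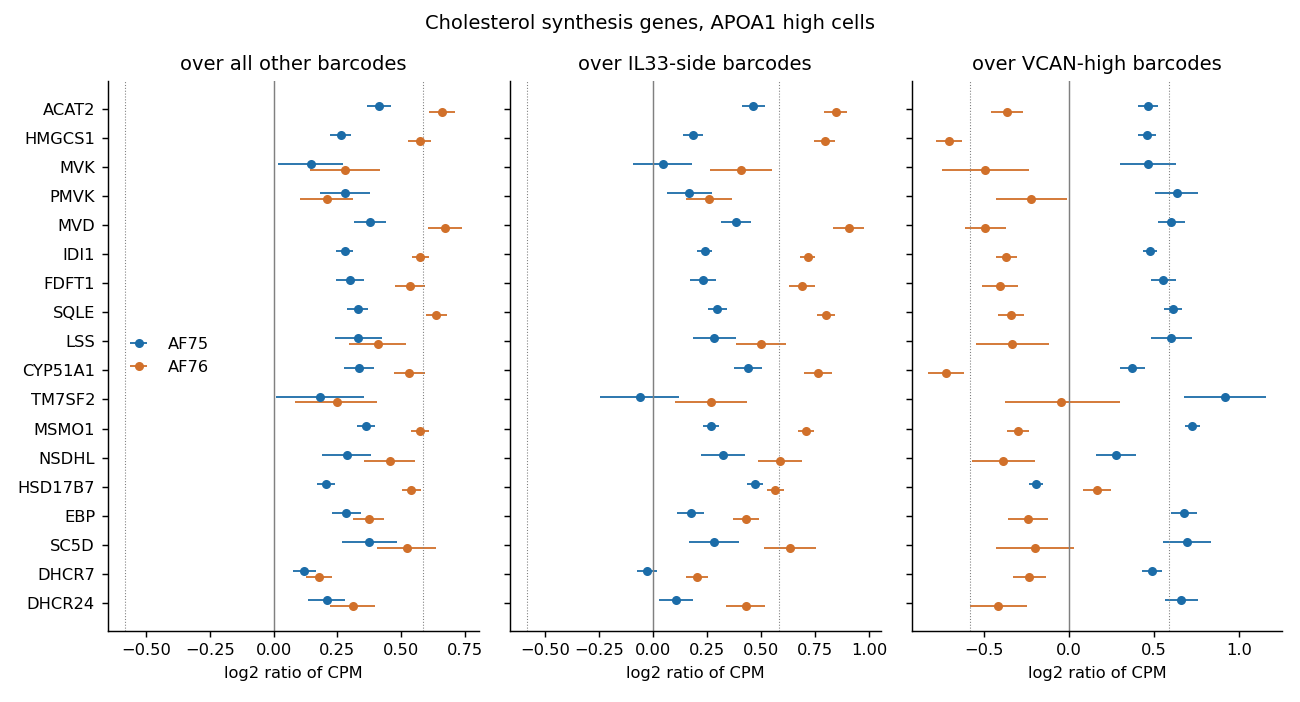
Log2 ratio of CPM of 18 of the 19 cholesterol synthesis genes compared in the APOA1 high cells over all other barcodes (left), IL33-side barcodes (middle) and VCAN-high barcodes (right), with AF75 in blue, AF76 in orange, bars for the 95% counting interval and dotted lines at 1.5-fold. In the left panel all points lie right of 0, and in the right panel the follicles lie on opposite sides of it, with AF75 to the right for all but HSD17B7.

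The genes that sense sterols shared this less evenly. INSIG1, the SREBP target that holds SREBP in the endoplasmic reticulum, stood at 91.6 CPM (87.2 to 96.2) in AF75 and 94.6 CPM (89.8 to 99.6) in AF76, with ratios over the other barcodes of 1.26 (1.2 to 1.34) and 1.44 (1.36 to 1.53). STARD4, a sterol carrier, had ratios of 1.16 and 1.41 and SREBF2, which encodes SREBP2, of 1.14 and 1.23. INSIG2, which is not an SREBP2 target, was at 0.992 and 0.87. Of the 14 genes of this list, 12 and 13 were compared and 0 were called higher, where 0.196% and 0.61% of all genes were. The 1 called lower, where 3.1% and 3.9% of all genes were, was MYLIP in AF76, at 0.327 CPM. Of 11 fatty acid genes compared, 7 in AF75 and 8 in AF76 had a ratio above 1, beside 39.3% and 32.3% of all genes. The sum of that list was 0.935-fold and 1.07-fold that of the comparison. Of the fatty acid genes, ELOVL6, which lengthens palmitate, reached 1.23 (1.12 to 1.34) in AF75 and 1.63 (1.48 to 1.79) in AF76, and SCD, which desaturates stearate, 1.17 and 1.41. FASN, the fatty acid synthase, was at 1.02 (0.956 to 1.08) and 1.17 (1.08 to 1.25). SCARB1, the receptor that takes cholesterol from high-density lipoprotein, was at 1503 and 1501 CPM with ratios of 1.08 and 1.03, and APOE, another apolipoprotein, was at 0.717 and 0.698. The efflux pump ABCA1 was nearly absent, at 1.2 and 0.718 CPM.

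Steroid hormone genes did not share the excess over the other barcodes. CYP19A1, the aromatase that makes estradiol, was called lower in both follicles, at 12.6 CPM (11 to 14.4) in AF75 and 16.4 CPM (14.4 to 18.5) in AF76, against 24.2 and 34.3 CPM in the other barcodes and 36.4 and 38.3 CPM on the IL33 side. With VCAN below 10 its ratio over the other barcodes in AF75 went from 0.52 to 0.869 and the call was lost there, while in AF76 it was kept. It was the 1 gene called of 11 compared in each follicle, of which 0 in AF75 and 2 in AF76 had a ratio above 1. The share of all genes called lower was 3.1% in AF75 and 3.9% in AF76 (301 and 377 genes). That share includes cell division genes, since the rule kept dividing barcodes out of the cells but not out of the comparison. Of the listed ones, 6 of 8 compared in AF75 and 4 of 5 in AF76 were called lower, as the choice of cells would make them. CYP11A1, which cuts the side chain of cholesterol, had ratios of 0.932 (0.92 to 0.944) and 0.878 (0.866 to 0.89). STAR, which carries cholesterol into mitochondria, had ratios of 0.889 (0.835 to 0.945) and 0.846 (0.784 to 0.912) over the other barcodes and 0.703 and 0.804 over the IL33 side. CYB5A was at 0.83 and 0.709. Among receptors, LHCGR for luteinizing hormone was found at 8.06 and 10.1 CPM, ratios 0.878 and 0.886, and FSHR was nearly absent, at 0.457 and 0.457 CPM. Over the VCAN-high barcodes, steroid hormone genes had ratios above 1 in 9 of 11 (AF75) and 6 of 9 (AF76). Of all genes, 53.3% and 39.9% did. There 3 and 2 were called higher, beside 4.95% and 0.695%, and 1 and 0 lower, beside 6.24% and 2.24%. After each barcode was thinned to 5000 UMIs, CYP19A1 was found in 4.81% and 6.47% of the cells. In VCAN-high barcodes it was found in 2.93% and 4.07%.

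Secreted signals formed the next group. INHBA, the βA subunit of inhibin and activin, stood at 1437 CPM (1419.6 to 1455) in AF75 and 805 CPM (791 to 819) in AF76, with ratios to the IL33 side of 2.9 and 2.26. INHBB, the βB subunit, was called lower than in the other barcodes in both follicles, at 0.278 and 0.604, but was at 1.1 and 0.787 against the IL33 side. In AF76 this call was lost with an APOA1 minimum of 2500 CPM, at 0.762. Its level in the VCAN-high barcodes was 204 and 20.8 CPM. RSPO3, which strengthens WNT signalling, was 1.5-fold or more above the IL33 side in both follicles, at 2.43 (2.36 to 2.49) and 1.85 (1.8 to 1.91). NOV, a matricellular protein of the CCN family, had the largest ratio over the IL33 side by the ranking used, 3.79 (3.61 to 3.98) and 2.94 (2.79 to 3.1). HBEGF, a ligand of the EGF receptor, was at 1.45 (1.28 to 1.63) and 1.6 (1.4 to 1.82) over the other barcodes, whereas AREG, the EGF-like ligand induced by luteinizing hormone, was at 1.22 and 1.01 over them. TGFB3 was lower than on the IL33 side, at 0.429 (0.406 to 0.454) and 0.493 (0.467 to 0.52). The BMP targets ID1 (0.562 and 0.649) and ID3 (0.293 and 0.489) were called lower than in the other barcodes in both follicles. The ID1 call in AF75 was lost with VCAN below 10, at 0.783. The BMP receptor BMPR1B was not called, at 0.889 and 1.07. Against the IL33 side, 0 of 9 AMH and BMP signalling genes compared were called lower in AF75 and 2 of 10 in AF76. Of all genes, 1.81% and 2.29% were. Against the VCAN-high barcodes 3 of 9 and 1 of 9 were called lower, beside 6.24% and 2.24% of all genes.

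**Figure D3:**
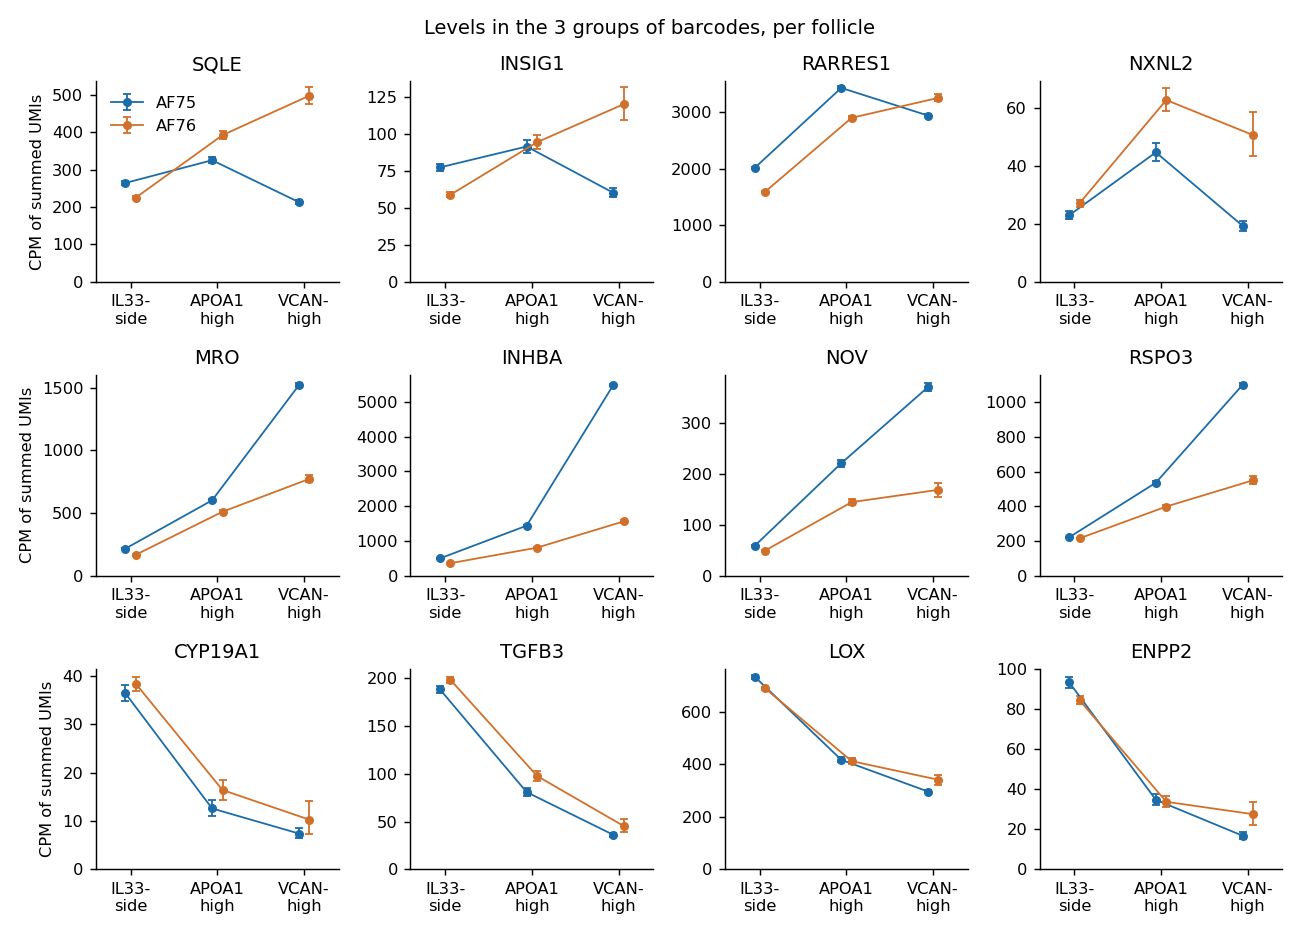
CPM of summed UMIs of 12 genes in IL33-side barcodes, APOA1 high cells and VCAN-high barcodes, with AF75 in blue, AF76 in orange, axes from 0 and bars for the 95% Poisson interval. In the middle and lower rows the APOA1 high cells lie between the other groups in both follicles, and in the upper row SQLE and INSIG1 peak in them in AF75 only.

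Ranked by the smaller of the ratios in the 2 follicles, the genes furthest above all other barcodes were SPINK5, a serine protease inhibitor, at 1.63 (1.49 to 1.79) and 1.67 (1.48 to 1.87), and NXNL2, at 1.57 (1.45 to 1.71) and 1.85 (1.72 to 1.99). TUBB3, a β-tubulin, followed at 1.54 and 1.56, then HKDC1, a hexokinase, at 1.48 and 1.57 and the retinoid-responsive RARRES1 at 1.41 and 1.6. RARRES1 was far from sparse: it stood at 3436 and 2906 CPM, and its median after each barcode was thinned to 5000 UMIs was 16 and 13 UMIs in the APOA1 high cells against 10 and 7 in the others. In VCAN-high barcodes that median was 13 in AF75 and 15 in AF76, so that in AF76 it was above that of the APOA1 high cells. The rest of the 15 were MSMB, LXN, ACAT2, ACTG2, TPPP3, RUSC1, TM4SF1, MVD and 2 genes without a symbol (ENSSSCG00000015083 and ENSSSCG00000035675). Of the 15, 2 belong to cholesterol synthesis. With VCAN below 10, SPINK5 (1.33), NXNL2 (1.497) and TUBB3 (1.4965) were no longer called in AF75, nor TUBB3 (1.29), HKDC1 (1.19) and RARRES1 (1.4) in AF76. Only 8 genes were called higher in both follicles and 89 were called lower in both, of 9518 compared in both. The other barcodes held 93740058 and 93607784 UMIs, against 17486446 and 15312817 in the cells. A gene sparse in the cells could thus be compared through the other barcodes alone, so that lower calls had more room than higher ones.

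The genes furthest below all other barcodes were THBS1, IFITM3, ID3, CYP19A1, F3, ENPP2, INHBB, ID1, ZNF395 and NPTX2. THBS1, the adhesive glycoprotein thrombospondin 1, was at 111 CPM (106 to 116) in AF75 and 22.6 CPM (20.3 to 25.1) in AF76, ratios of 0.27 and 0.39. Against the IL33 side it was at 2.32 (2.18 to 2.47) in AF75 and 0.608 (0.542 to 0.681) in AF76, opposite ways. F3, tissue factor, was also above the IL33 side in AF75 (1.7) and below it in AF76 (0.816). Over the VCAN-high barcodes, ENPP2 had ratios above 1 in both follicles. CYP19A1, ENPP2 and ZNF395 were called lower against both the other barcodes and the IL33 side in both follicles. In AF75 their calls over the other barcodes were lost with VCAN below 10, where the ratios were 0.869, 0.726 and 0.836. ENPP2 makes the lipid mediator lysophosphatidic acid, and its ratios to the IL33 side were 0.372 (0.341 to 0.405) and 0.4 (0.365 to 0.437).

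Against the IL33-side barcodes 140 genes were called higher in AF75 and 96 in AF76, 58 of them in both. The shares called lower were 1.81% (159 genes) and 2.29% (212 genes), with 75 in both, and 2 genes were called in opposite directions. By the same ranking, applied to this comparison as well, the higher genes were led by NOV, MRO, ENSSSCG00000031023, INHBA, PLCXD3, MFAP2 and PERP. MRO, which encodes maestro, was at 2.79 (2.72 to 2.87) and 3.06 (2.97 to 3.15). MFAP2, a microfibril protein, was at 2.78 and 2.02, PERP, a desmosome protein and p53 target, at 1.96 and 2.09 and SLC16A3, the lactate exporter, at 2.69 and 1.78. The lower genes were led by ENPP2, CYP19A1, TGFB3, TSPAN12 and AQP9, with WEE1, a kinase that delays mitosis, at 0.553 and 0.571 and LOX, which cross-links collagen, at 0.568 and 0.597. All 9 listed mural genes of the IL33 side, a list chosen from these libraries, had ratios below 1 to the IL33 side in both follicles (5 and 4 of them at 1.5-fold), among them IGFBP7 (0.57 and 0.684) and LIMCH1 (0.548 and 0.65). Over the VCAN-high barcodes all 9 had ratios above 1 in both follicles.

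At most genes called against the IL33 side and also compared with VCAN-high barcodes, the APOA1 high cells lay between those 2 groups. In AF76 the VCAN-high barcodes numbered only 221. There 67 of the 96 genes called higher and 38 of the 212 called lower could be placed. Among genes called higher than on the IL33 side and also compared with VCAN-high barcodes, 118 of 134 in AF75 (88.1%) and 50 of 67 in AF76 (74.6%) had a level below that of the VCAN-high barcodes. Over all genes compared, 58.6% and 46.4% lay between the groups. Of those called lower than on the IL33 side, 55 of 62 (88.7%) and 26 of 38 (68.4%) lay between. APOA1, IL33 and VCAN set all 3 groups, so these counts describe the sorting and were not tested.

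**Figure D4:**
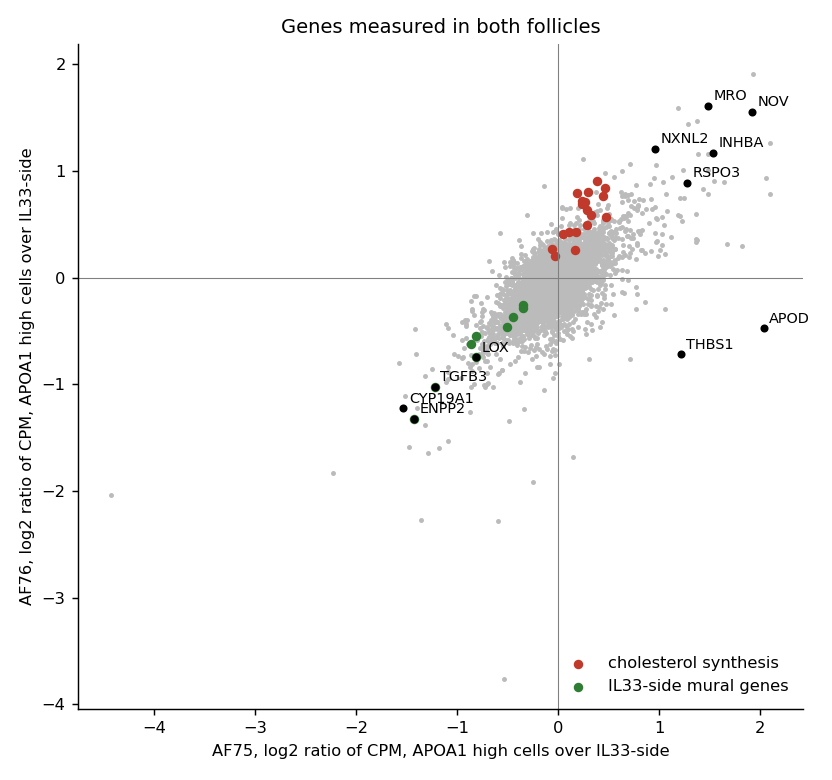
Log2 ratio of CPM in the APOA1 high cells over IL33-side barcodes for each gene compared in both follicles, AF75 on the horizontal and AF76 on the vertical axis, with the rule's genes left out. Cholesterol synthesis genes (red) lie above 0 in AF76 and near or above it in AF75, listed mural genes of the IL33 side (green) lie below 0 in both, and THBS1 and APOD lie on opposite sides.

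Among the other lists, 12 of 14 cytoskeleton genes had a ratio above 1 over the other barcodes in each follicle, beside 39.3% and 32.3% of all genes, and the 1 called was TUBA1C, lower in AF75. Their sum was 1.13-fold and 1.14-fold that of the comparison. JPT1 had the largest excess in the list in both, at 1.27 (1.25 to 1.3) and 1.34 (1.31 to 1.37). Over the VCAN-high barcodes, 9 of 14 cytoskeleton genes in AF75 and 4 of 13 in AF76 had a ratio above 1, beside 53.3% and 39.9% of all genes. There 2 and 0 were called lower, beside 6.24% and 2.24%. Glycolysis genes had ratios above 1 over the IL33 side in 12 of 12 compared in AF75 and 11 of 13 in AF76, beside 41.3% and 37.8% of all genes, with LDHA, which makes lactate, at 1.53 and 1.39. Against the VCAN-high barcodes, 13 of 13 had a ratio below 1 in AF75, 10 of them at 1.5-fold, beside 6.24% of all genes. In AF76 10 of 12 were below 1, with 0 at 1.5-fold beside 2.24% of all genes. LDHA was at 0.371 in AF75 against 0.876 in AF76. Of the unfolded protein response, apoptosis, interferon and immediate early lists, 14, 14, 10 and 10 genes were compared with the other barcodes in AF75. In AF76 14, 13, 10 and 10 were. Called higher were 0, beside 0.196% and 0.61% of all genes, and few were called lower, beside 3.1% and 3.9%. The genes called lower were CHAC1 and NR4A1 in AF75 and FAS in both follicles, at 2.23 and 1.04 CPM. The immediate early gene FOS was at 0.731 and 0.684. Within junctions, CLDN11, a tight junction protein, was at 1.53 (1.38 to 1.7) in AF75 and 0.706 (0.618 to 0.804) in AF76.

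Leukocyte, endothelial and red blood cell markers were few. The 10 leukocyte markers summed to 14.1 CPM in AF75 and 9.73 in AF76, the 7 endothelial markers to 11.09 and 9.67, while HBB, the β-globin of red blood cells, stood at 2.29 and 10.8 CPM. Over the other barcodes, the leukocyte sums had ratios of 1.12 and 0.679, the endothelial sums of 0.597 and 0.775 and the sums of 6 red blood cell genes of 0.904 and 0.214. CD3D and LYZ were at 0 in both follicles, as were the oocyte genes ZP2, ZP3, ZP4, BMP15, DAZL, OOEP and FIGLA. Of 4 and 16 barcodes with several leukocyte markers in the whole libraries, 1 met the rule in AF75 and 0 in AF76. Of the theca and stromal markers, summing to 381 and 543 CPM with ratios of 1.23 and 1.03 over the other barcodes, INSL3 made up most, at 369 and 521 CPM, while CYP17A1, the theca androgen enzyme, was at 0.572 and 0.653 CPM. Mitochondrial genes gave a median of 2.44% of UMIs in AF75 and 2.74% in AF76, against 2.62% and 2.998% in the other barcodes. The part of these markers in the differences above was not tested.

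The cells were not uniform. Thinned to 5000 UMIs, which left out 1 of these cells in each follicle and 18 and 104 of the other barcodes, they held a median of 1960 and 1931 genes, against 1976 and 1956 in the other barcodes. The summed cholesterol genes then had a median of 17 UMIs per cell in both follicles (10th to 90th percentile 5 to 37 in AF75 and 5 to 40.6 in AF76), against 12 in AF75 and 9 in AF76 in the other barcodes, so that the ranges overlapped widely. INHBA had a median of 4 and 2 UMIs, with 90th percentiles of 20.5 and 11. MRO had a median of 1 in both follicles. VCAN, capped by the rule, had a median of 5 UMIs in AF75 and 2 in AF76.

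Across single cells, the correlation of APOA1 with the cholesterol sum at this depth was -0.06 in AF75 (1476 cells) and 0.02 in AF76 (1005 cells), and these cells share a library and its depth. Split by APOA1, 589 cells of AF75 and 416 of AF76 held 30 to 59 UMIs, 524 and 346 held 60 or more but under 120, and 364 and 244 held 120 or more. The cholesterol sum was 4012, 4017 and 3691 CPM over these bins in AF75 and 3761, 4312 and 4176 in AF76, so that it followed no common course. MRO was 509.6 CPM, 589 and 753 in AF75, and 419, 519.8 and 634 in AF76. NOV was 148, 219.8 and 328 CPM in AF75 and 128, 135 and 182 in AF76. IL33, whose ceiling rises with APOA1 under the rule, went from 1213 to 1746 CPM in AF75 and from 1016 to 1927 in AF76. DKK1 was 50.02, 53.1 and 19.7 CPM in AF75 and 50.7, 36.6 and 35.4 in AF76, lowest in the top bin in AF75, whereas the upper 2 bins of AF76 had overlapping intervals. CYP19A1 had overlapping intervals in all bins.

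**Figure D5:**
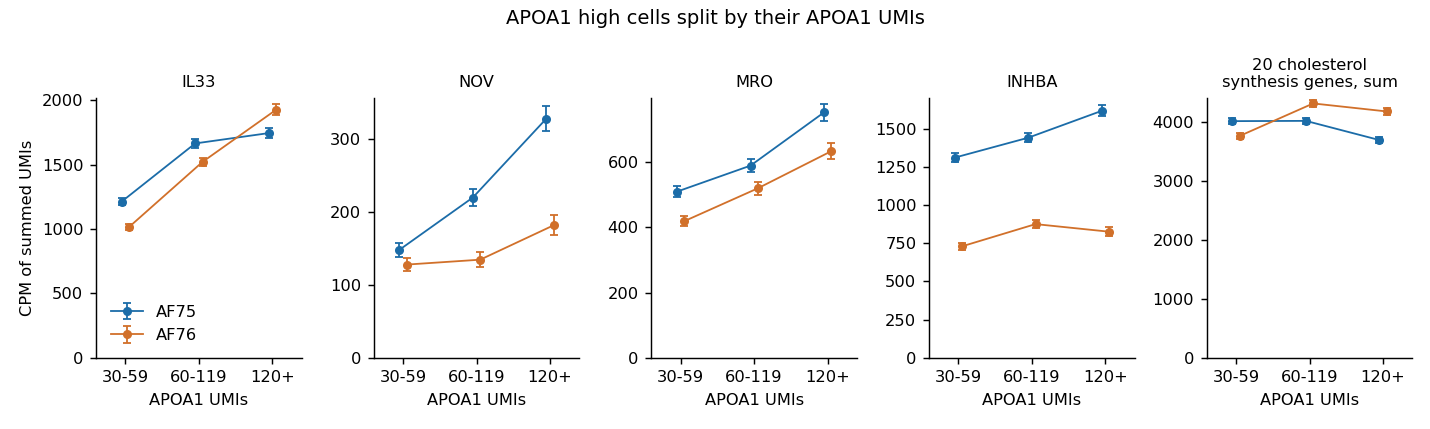
CPM of summed UMIs in APOA1 high cells split by their APOA1 UMIs (30 to 59, 60 to below 120, 120 or more), for IL33, NOV, MRO, INHBA and the sum of 20 cholesterol synthesis genes, with AF75 in blue, AF76 in orange and 95% Poisson intervals. MRO rises over the bins in both follicles, while the cholesterol sum is lowest in the top bin in AF75 and in the bottom bin in AF76.

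After thinning, the genes that varied most among the cells beyond counting, by the smaller variance over mean of the 2 follicles, were TIMP1, GCG, ENSSSCG00000014540, PENK, GSTA1, AREG, MT1A, MSMB, TM4SF1 and SCG2. TIMP1, an inhibitor of matrix metalloproteinases, had a variance over mean of 64.9 in AF75 and 67.0 in AF76, at 50.9 and 49.8 UMIs per cell. GSTA1, a glutathione transferase, had 36.5 and 42.9. AREG had 33.5 and 34.8, at 15.9 and 26.6 UMIs. The peptide precursors GCG (59.02 and 87.3) and PENK (49.6 and 40.4) had means of only 1.57 and 2.76, and 4.41 and 1.76 UMIs. The median over the 3415 genes measured in both was 1.07 and 1.08. The summed cholesterol genes had 9.24 and 10.2, against 10.3 and 12.1 in the other barcodes.

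Between follicles the APOA1 high cells differed by under 1.5-fold at most genes compared. In AF76 0.28% of 6782 genes compared were 1.5-fold higher than in AF75 (19 genes) and 1.21% were lower (82 genes). Follicle and library cannot be told apart. ID3 led the higher genes, at 2.67 (2.16 to 3.33), followed by ND6 at 2.02 (1.79 to 2.28), TAGLN at 2.01 (1.62 to 2.51), SELENOP at 1.93 (1.71 to 2.18) and RCBTB2 at 1.92 (1.63 to 2.25). GTSF1 led the lower ones, with 205 UMIs in AF75 and 0 in AF76, a log2 ratio of -5.90 or lower with the 0 set at its limit of 3 UMIs. SHAS2, annotated as hyaluronan synthase 2, was at 34.5 and 5.55 CPM, a ratio of 0.161 (0.127 to 0.202). NAV2 was at 0.161 (0.136 to 0.19), APOD at 0.195 (0.141 to 0.264) and THBS1 at 0.204 (0.182 to 0.229). The same ratios in the other barcodes were 0.0267 for SHAS2, 0.0795 for NAV2, 0.206 for APOD and 0.141 for THBS1, all in the same direction. SQLE differed by a ratio of 1.21 (1.16 to 1.25), HMGCS1 by 1.05 (1.01 to 1.09), APOA1 by 0.794 (0.788 to 0.801) and CYP19A1 by 1.3 (1.08 to 1.57), all under 1.5-fold.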

How the data were processed

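Per the labels and the study's methods, the authors aligned the reads of each library to Sscrofa11.1 with CellRanger 6.0.2 and deposited whole UMI counts per gene and cell barcode, with no normalization. The files held 14289 barcodes and 125409747 UMIs for AF75 and 15548 barcodes and 127414267 UMIs for AF76. The cells described gave 13.9% and 12.0% of these UMIs. Their members and the 29 gene lists were chosen with earlier results of these data known, so that nothing here is independent support of an earlier pattern. Of 347 listed genes, 22 were not matched and are not used here. Gene symbols came from the files for 14986 of 22342 genes and from RefSeq for 1042.

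UMIs were summed over the barcodes of a group and scaled to CPM. Genes with at least 200 UMIs in either group were compared, by ratios with exact conditional 95% intervals. CPM intervals were exact Poisson and shares exact Clopper-Pearson. The genes used by the rule (APOA1, IL33, VCAN, TOP2A, UBE2C, CENPF) were left out of counts of genes. Other genes of dividing cells were kept in these counts. Genes were named by the smaller absolute log2 ratio of the follicles where both had the same sign, with at least 20 CPM in one group: 15 higher and 10 lower, the 5 largest ratios each way between follicles, the 10 of largest variance over mean, and examples of each list. Applying that ranking to the IL33-side comparison, and naming over 4 members of a list, were decided after values were seen. Intervals were computed with scipy 1.17.1 in Python 3.11.15, and Scrublet, in scanpy 1.11.5, was run with an expected doublet rate of 6.9%. Other packages were numpy 2.4.6, pandas 2.3.3 and matplotlib 3.10.9. The ratio script was tested on simulated data. Alternatives changed the APOA1, VCAN, gene and mitochondrial limits, the comparison, the scaling, the depth and the gene minimum. Values of some listed genes and of a promoter are not reported here. No test between groups was run, since each follicle is 1 library.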

Additional observations from a re-analysis of the deposited data

Results flagged for a closer look

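For SHAS2, THBS1, TAGLN and SELENOP the APOA1 high cells were 1.5-fold or more above a comparison in one follicle and 1.5-fold or more below it in the other. These are only the genes already named above. In all, 7 of 9518 genes did so over the other barcodes, 2 of 8750 over the IL33 side and 10 of 6327 over the VCAN-high barcodes. The median of the cholesterol synthesis genes also lay on opposite sides, by less than 1.5-fold. With 1 library per follicle the difference was not tested. SHAS2 had a log2 ratio to the other barcodes of -1.37 in AF75 and 1.22 in AF76. THBS1 had a log2 ratio to the IL33-side barcodes of 1.21 in AF75 and -0.72 in AF76. Against the VCAN-high barcodes, TAGLN was at -0.72 in AF75 and 0.99 in AF76, and SELENOP at 1.17 and -0.88. The median log2 ratio of the 19 cholesterol synthesis genes to the VCAN-high barcodes was 0.55 in AF75 and -0.37 in AF76. The VCAN-high barcodes numbered 2118 in AF75 and 221 in AF76.

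Barcodes outside the limits on genes and mitochondrial UMIs also met the other limits of the rule, 84 in AF75 and 44 in AF76. They entered no comparison. Of these, 56 and 16 had under 2000 detected genes, 16 and 24 had over 5000, and 12 and 4 had 7% or more mitochondrial UMIs.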

How the results depend on the processing

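With 1 library per follicle no library could be left out. Leaving out the highest Scrublet scores and dropping the VCAN limit were alternatives chosen after seeing the data. The share of cells kept, 15.78% in AF75 and 12.83% in AF76, became 18.76% and 15.47% with an APOA1 minimum of 20, 13.14% and 10.58% with 40, 16.61% and 11.9% with 2500 CPM, 6.302% and 7.714% with VCAN below 10, 13.22% and 8.088% with 500 to 6000 genes, and 32.16% and 14.27% with no VCAN limit. Genes called higher, 19 and 59, became 43 and 30 with VCAN below 10, 140 and 96 over the IL33 side, and 190 and 239 with a minimum of 20 UMIs, and AF75 gave 263 with no VCAN limit. Genes called lower, 301 and 377, became 159 and 212 against the IL33 side and 941 and 1265 with 20 UMIs, and in AF75 524 with VCAN below 10 and 197 after thinning. Cholesterol genes called higher in AF76, 4, became 7 with an APOA1 minimum of 20, 40 or 2500 CPM, with 500 to 6000 genes or without the highest Scrublet scores, 0 with VCAN below 10, 11 over the IL33 side, 10 with the mean CPM of barcodes, and 9 after thinning or with no VCAN limit. AF75 gave 0 in each. In AF75, log2 ratios turned positive against the IL33 side for THBS1 (1.214), F3 (0.7667) and INHBB (0.133), and with no VCAN limit for THBS1 (1.818), IFITM3 (0.7353), ID3 (0.2459), F3 (1.167) and INHBB (1.052). Having no VCAN limit also ended the AF75 calls of NXNL2, TUBB3, ACTG2, ID1 and ZNF395. In AF75 it made new higher calls of MRO (1.547), INHBA (1.43) and HKDC1 (1.145). The cause was not tested. Of the 13 and 21 values at 1.5-fold over the other barcodes among 47 named genes in AF75 and AF76, 7 and 8 fell under it with VCAN below 10. Further calls were lost in AF75 for TUBB3 with 500 to 6000 genes (0.5645) and ZNF395 after thinning (-0.5522), and in AF76 for HKDC1 and INHBB with 2500 CPM (0.4913 and -0.3925) and SPINK5 after thinning (0.551). Of the other values of named genes, 802 stayed within their counting interval and 229 moved without changing sign from a called value, and under the 2 alternatives chosen after seeing the data 118 stayed and 65 moved. No paired analysis was possible because each follicle is a single library, so that there are fewer than 2 pairs, and no test was run.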
